A study of Mus musculus with 4 samples.

Results

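The SLC25 family holds the mitochondrial carriers, nuclear-encoded membrane proteins that move nucleotides, carboxylates, amino acids, cofactors and metal ions across the inner mitochondrial membrane. Genes were taken from the deposited table by symbol: every symbol that starts with Slc25a, plus the uncoupling proteins Ucp1, Ucp2 and Ucp3 and the carrier homologs Mtch1 and Mtch2 of the outer membrane. This gave 47 of 20207 genes. The values come from LSK cells sorted from Brpf1-null and wild-type mouse embryos at E14.5; this fraction lacks lineage markers, carries Sca-1 and Kit and holds blood stem cells and multipotent progenitors. Brpf1 encodes a chromatin reader that joins histone acetyltransferase complexes; neither strain nor the way of deletion is given in the sources used here. Each sample pooled about 10000 cells from 4 embryos. The labels list 2 samples per genotype in 2 pairs, but the tables of both pairs held identical values. Each genotype therefore has 1 set of values, read here as 1 library, and no difference below has a replicate check or a p-value.

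Carriers set which metabolites a mitochondrion can exchange with the cytosol. In red cell precursors, mitoferrin 1 (Slc25a37) brings in iron and Slc25a38 brings in glycine, and heme synthesis in the mitochondrion begins with glycine and ends with the insertion of iron. Most other members, such as the ADP/ATP, phosphate and citrate carriers, work in nearly every cell type.

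Levels are RPKM, reads scaled to transcript length and library size, and can be compared between genes. The Brpf1-null library held about 22165076 reads and the wild-type library about 23564890, as estimated from the spacing of low values. Folds are ratios of RPKM, and the range in brackets is an exact 95% Clopper-Pearson counting interval; it covers counting error only, rests on estimated read numbers and says nothing about the spread between embryos or pools. Log2 changes were computed after adding 1 RPKM to both values, which understates the change of low genes, and a gene was counted as higher or lower when that change reached 1.5-fold. A gene counted as within 1.5-fold can therefore have a ratio of RPKM past 1.5. Brpf1 itself stood at 2.15 RPKM in the Brpf1-null library and 2.59 RPKM in the wild-type library, a 1.01-fold to 1.44-fold lower level by its counting interval. A whole-gene value does not show whether a deleted stretch is missing, and the labels are checked by it only weakly. Of the genes that define the sort, Kit was at 21.3 RPKM in Brpf1-null and 25.6 RPKM in wild-type cells, and Ly6a (Sca-1) at 9.51 and 10.6 RPKM in the same order, both within 1.5-fold.

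Of the 47 members, 34 had a mean of at least 1 RPKM over both libraries and are called measured here. Among these, 7 (20.6%) were higher in the Brpf1-null library by 1.5-fold or more, 5 (14.7%) were lower by as much and 22 (64.7%) lay within 1.5-fold. Over all 9380 genes with that mean, 14.1% were higher, 9.42% were lower, 23.5% were past 1.5-fold in either direction and 76.5% lay within it. The members' shares lay above both, by a margin of few genes. Dividing each library by its own median (centring) moved the median change of all genes by −0.11. The members then split into 6 higher and 5 lower and all genes into 988 higher and 1201 lower, against 1323 higher and 884 lower as deposited. The median log2 change of the 34 members was 0.22, against 0.04 over all genes, and 0.10 and −0.06 after centring. The 7 higher members were Slc25a12, Slc25a13, Slc25a20, Slc25a22, Slc25a26, Slc25a28 and Mtch1, and the 5 lower ones Slc25a37, Slc25a38, Slc25a14, Slc25a21 and Slc25a36. The counting interval excluded 1 for all 12 of them, and also for 18 of the 22 members within 1.5-fold.

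**Figure D1:**
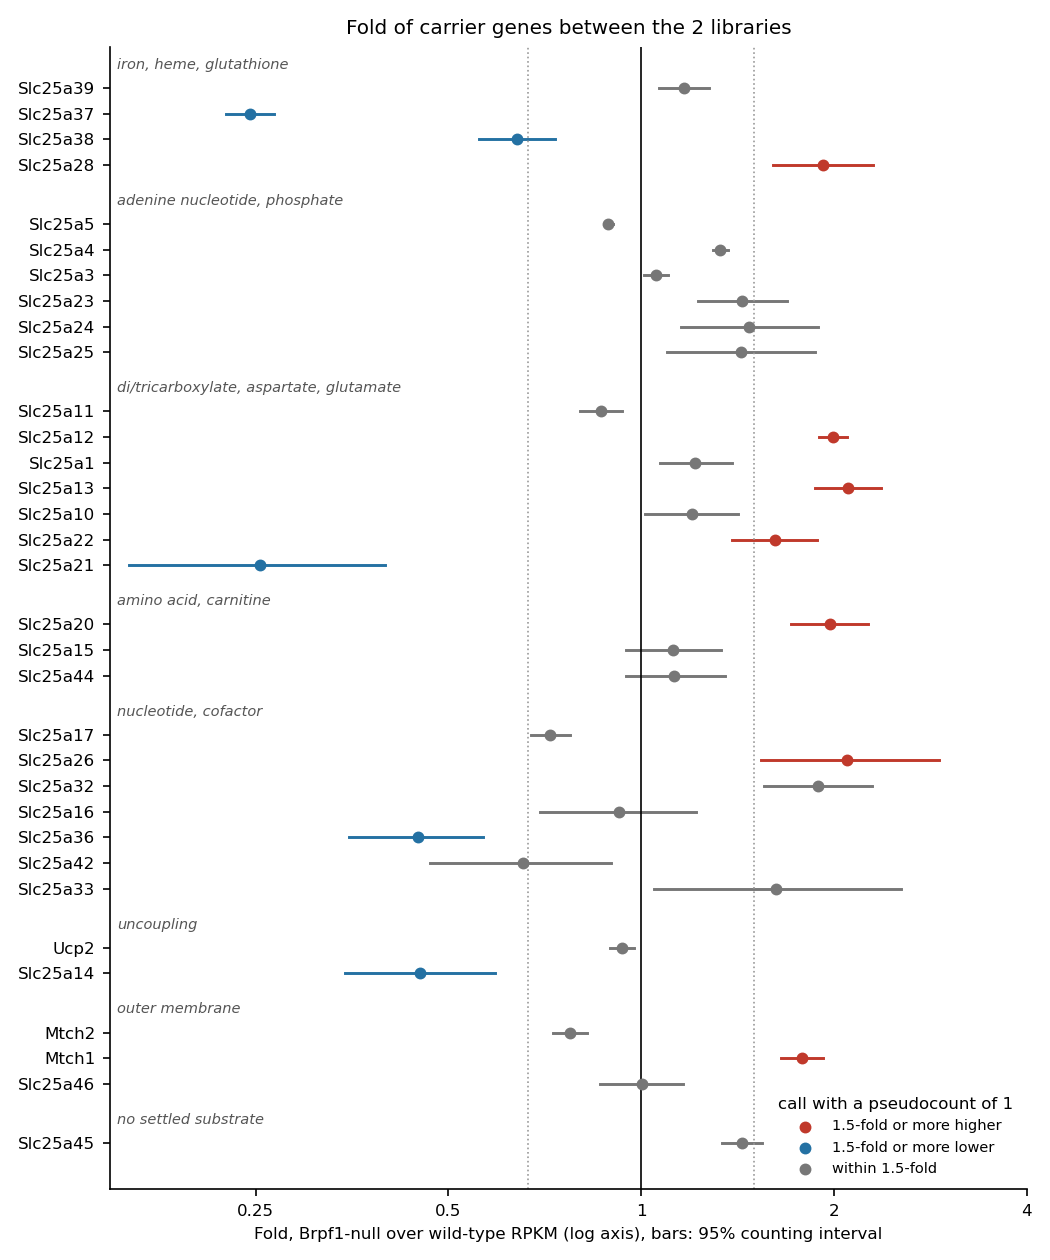
Fold of measured carrier genes, Brpf1-null over wild-type RPKM on a log axis, grouped by role; points are the ratio of 1 library each, bars the 95% counting interval, dotted lines mark 1.5-fold either way. Slc25a37 (0.245) and Slc25a21 (0.253) lie farthest to the left, and Slc25a13, Slc25a26, Slc25a12, Slc25a20 and Slc25a28 lie near 2.

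Both erythroid carriers were lower in Brpf1-null cells, Slc25a37 more than Slc25a38. Slc25a37, the iron importer of erythroid mitochondria, was at 6.83 RPKM in the Brpf1-null library and 27.9 RPKM in the wild-type library, 4.08-fold lower (3.74 to 4.46). These levels rest on about 632 and 2742 reads. Its log2 change of −1.88 was the lowest of the 34 measured members, and 69 of the 9380 genes had a lower one. Slc25a38, whose human counterpart is mutated in a congenital sideroblastic anemia, was at 8.59 RPKM in the Brpf1-null and 13.4 RPKM in the wild-type library, 1.56-fold lower (1.36 to 1.79). Its log2 change of −0.59 only just reaches the 1.5-fold mark, and with a pseudocount of 5 it was −0.44, inside it. In pooled cells, fewer cells of a type and less RNA per cell cannot be told apart.

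The other measured members that serve iron and glutathione were not lower. Slc25a28, mitoferrin 2, the more widely expressed relative of Slc25a37, was at 10.3 RPKM in Brpf1-null and 5.35 RPKM in wild-type cells, 1.92-fold higher (1.61 to 2.30). The order of the mitoferrins therefore differed between the libraries: Slc25a28 stood 1.5 times as high as Slc25a37 in the Brpf1-null library, and Slc25a37 stood 5.22 times as high as Slc25a28 in the wild-type library. Summed, they came to 17.1 RPKM in Brpf1-null and 33.2 RPKM in wild-type cells. Slc25a39, a mitochondrial glutathione importer, was at 27.5 and 23.6 RPKM in Brpf1-null and wild-type cells, within 1.5-fold (1.17-fold higher, 1.07 to 1.27). Its relative Slc25a40 stayed under the mean of 1 RPKM, at 0.469 RPKM in Brpf1-null and 1.14 RPKM in wild-type cells.

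The RefSeq promoter table (assembly GRCm38.p6, 250 bases before to 50 after a start) held 37 of the 47 members by symbol, with 47 start sites between them. Slc25a37 was not among these 37, so its promoter was not searched. The sequences below are those of Slc25a38, the glycine carrier that was lower, Slc25a28, the mitoferrin that was higher, and Slc25a12 and Slc25a13, a related pair with like folds. Capitals mark matches on either strand to the GATA factor words (AGATAA or AGATAG or TGATAA or TGATAG) or to the E-box (CACGTG); neither motif holds the other.
Slc25a38, chr9:120110132-120110431, plus strand: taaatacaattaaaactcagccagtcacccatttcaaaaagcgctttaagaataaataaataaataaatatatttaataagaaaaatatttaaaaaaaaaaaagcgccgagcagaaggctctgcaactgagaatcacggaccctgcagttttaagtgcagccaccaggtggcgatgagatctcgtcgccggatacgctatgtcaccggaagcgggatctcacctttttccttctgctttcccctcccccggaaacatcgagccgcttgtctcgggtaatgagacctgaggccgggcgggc
Slc25a28, chr19:43674832-43675131, minus strand: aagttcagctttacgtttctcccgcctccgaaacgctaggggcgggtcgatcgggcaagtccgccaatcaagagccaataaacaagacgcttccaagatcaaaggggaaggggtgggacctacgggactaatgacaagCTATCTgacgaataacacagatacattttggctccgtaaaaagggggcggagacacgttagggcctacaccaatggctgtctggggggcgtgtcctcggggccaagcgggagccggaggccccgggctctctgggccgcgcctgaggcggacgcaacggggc
Slc25a12, chr2:71367706-71368005, minus strand: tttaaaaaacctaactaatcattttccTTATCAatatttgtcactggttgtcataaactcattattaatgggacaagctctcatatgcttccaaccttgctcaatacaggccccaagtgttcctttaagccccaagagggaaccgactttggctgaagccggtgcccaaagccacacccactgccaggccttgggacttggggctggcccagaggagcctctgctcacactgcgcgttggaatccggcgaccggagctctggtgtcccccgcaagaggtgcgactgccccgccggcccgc
Slc25a13, chr6:6217124-6217423, minus strand: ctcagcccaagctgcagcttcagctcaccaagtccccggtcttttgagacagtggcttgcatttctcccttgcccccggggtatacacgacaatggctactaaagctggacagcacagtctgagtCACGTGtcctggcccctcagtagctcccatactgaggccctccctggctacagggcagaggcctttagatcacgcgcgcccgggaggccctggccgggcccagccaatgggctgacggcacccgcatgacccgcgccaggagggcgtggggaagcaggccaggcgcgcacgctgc

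The Slc25a38 window held none of these letters. The Slc25a28 window held 1 GATA word, 112 to 107 bases before the start, and the Slc25a12 window 1, 223 to 218 bases before it; both lie on the strand opposite to the one printed. The Slc25a13 window held 1 E-box, 125 to 120 bases before the start. Over all 32851 promoters in the table, 29.8% held a GATA word and 7.15% the E-box. Among the 47 start sites of members, 9 held a GATA word and 8 the E-box. Some genes have several start sites, and by gene 8 of 37 held a GATA word and 7 the E-box. A match to letters is a description of the sequence and not a bound site.

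The housekeeping carriers, 16 members used by most cell types and all measured, had a median log2 change of 0.10 as deposited, 0.10 on quantile-normalized values, 0.12 once a trend on GC content was taken out and −0.01 after centring. All 34 measured members had a median of 0.22 as deposited, and this list was chosen with earlier results of these data known. Of the 16 housekeeping carriers, 3 were at least 1.5-fold higher (Slc25a28, Slc25a26 and Mtch1), 1 was lower (Slc25a36) and 12 lay within 1.5-fold. Over all 9380 genes the shares were 14.1% higher, 9.42% lower and 76.5% within. The 16 changes ranged from −0.65 for Slc25a36 to 0.83 for Slc25a28. Slc25a12, Slc25a13, Slc25a20 and Slc25a22, higher as well, are not in this list. Nor are Slc25a21 (−1.04) and Slc25a14 (−0.86), whose log2 changes lay below that of Slc25a38 (−0.59). None of the 16 had a log2 change below that of Slc25a37, and 1, Slc25a36, had one below that of Slc25a38. The summed RPKM of the housekeeping carriers was 1559 in the Brpf1-null and 1593 in the wild-type library, while Slc25a37 and Slc25a38 together came to 15.4 RPKM in Brpf1-null and 41.3 RPKM in wild-type cells.

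The carriers lay beside a wider difference in heme and erythroid genes. Of 13 measured genes of heme synthesis and its mitochondrial partners, 10 were lower by 1.5-fold or more in Brpf1-null cells, 1 was higher and 2 lay within. Their median log2 change was −0.89. Over all genes 9.42% were lower and 14.1% were higher. Alas2, the erythroid enzyme that joins glycine to succinyl-CoA, was at 8.62 RPKM in Brpf1-null and 67.7 RPKM in wild-type cells. Fech, which inserts the iron in the last step of heme synthesis, was at 4.99 RPKM in Brpf1-null and 12.6 RPKM in wild-type cells. Abcb10, an inner membrane transporter that binds mitoferrin 1, was at 3.06 and 5.34 RPKM in the same order. Alad, a cytosolic enzyme of the pathway, was at 51.1 RPKM in Brpf1-null cells, against 135 RPKM in wild-type cells. The exception was Abcb6, a porphyrin transporter, at 5.69 RPKM in Brpf1-null and 3.19 RPKM in wild-type cells, which fell inside 1.5-fold after centring, on quantile-normalized values and without the GC trend. Without that trend 9 of the 10 lower genes were past the mark, Clpx, a mitochondrial chaperone subunit that acts on ALA synthase, being at −0.47. Alas1, the form of the enzyme used outside the erythroid lineage, was at 12.9 RPKM in Brpf1-null and 9.42 RPKM in wild-type cells, within 1.5-fold. Per Alas2, Slc25a37 stood at 0.793 in the Brpf1-null and 0.412 in the wild-type library, and Slc25a38 at 0.997 and 0.198 in the same order, so both carriers differed less between the libraries than Alas2 did.

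Iron uptake and iron-sulphur cluster genes differed less. Of 13 measured, 2 were lower, 1 was higher and 10 lay within 1.5-fold, with a median log2 change of −0.30. Over all genes 9.42% were lower, 14.1% were higher and 76.5% lay within. Tfrc, the transferrin receptor, was at 9.77 RPKM in Brpf1-null and 19.1 RPKM in wild-type cells, and the assembly factor Isca1 at 15.7 and 39.2 RPKM in the same order. Hscb, a cochaperone of cluster transfer, was at 32.0 RPKM in Brpf1-null and 20.9 RPKM in wild-type cells, a change of 0.59 that fell inside 1.5-fold after centring or quantile normalization. In both of these Nfs1, the cysteine desulfurase of cluster assembly, was past the mark on the lower side, so that 3 genes were lower.

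Erythroid, hepatocyte and B-lineage markers were lower in Brpf1-null cells, as Slc25a37 and Slc25a38 were, and myeloid markers went both ways. Of 7 LSK markers, 5 lay within 1.5-fold. The shares over all genes were 9.42% lower, 14.1% higher and 76.5% within. All 12 measured erythroid markers were lower by 1.5-fold or more in Brpf1-null cells. Together with Ank1, which was under a mean of 1 RPKM, they summed to 396 RPKM in Brpf1-null and 1563 RPKM in wild-type cells. Most of each sum came from Car2, at 301 RPKM in Brpf1-null and 963 RPKM in wild-type cells. All 11 hepatocyte markers were lower as well, with a sum of 440 RPKM in Brpf1-null and 1688 RPKM in wild-type cells. Of 6 measured B-lineage markers, all 6 were lower (5 after quantile normalization), and Pax5 was listed at 0 in both libraries. Hnf4a, a defining hepatocyte factor, was at 0.909 RPKM in Brpf1-null and 2.67 RPKM in wild-type cells. Of 7 measured monocyte and granulocyte markers, 4 were higher and 3 lower, with a sum of 684 RPKM in Brpf1-null and 519 RPKM in wild-type cells, and of 7 LSK markers 1 was higher and 1 lower, with 307 and 286.5 RPKM in the same order. After centring these counts were 2 higher and 3 lower for the myeloid markers and 0 higher and 2 lower for the LSK markers, and the myeloid markers split into 3 higher and 3 lower on quantile-normalized values or without the GC trend. All genes were then 10.5% higher and 12.8% lower after centring. They were 12.1% and 11% on quantile-normalized values, and 12.8% and 9% without the GC trend, in the same order. The part of other cells in the carrier values was not tested.

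**Figure D2:**
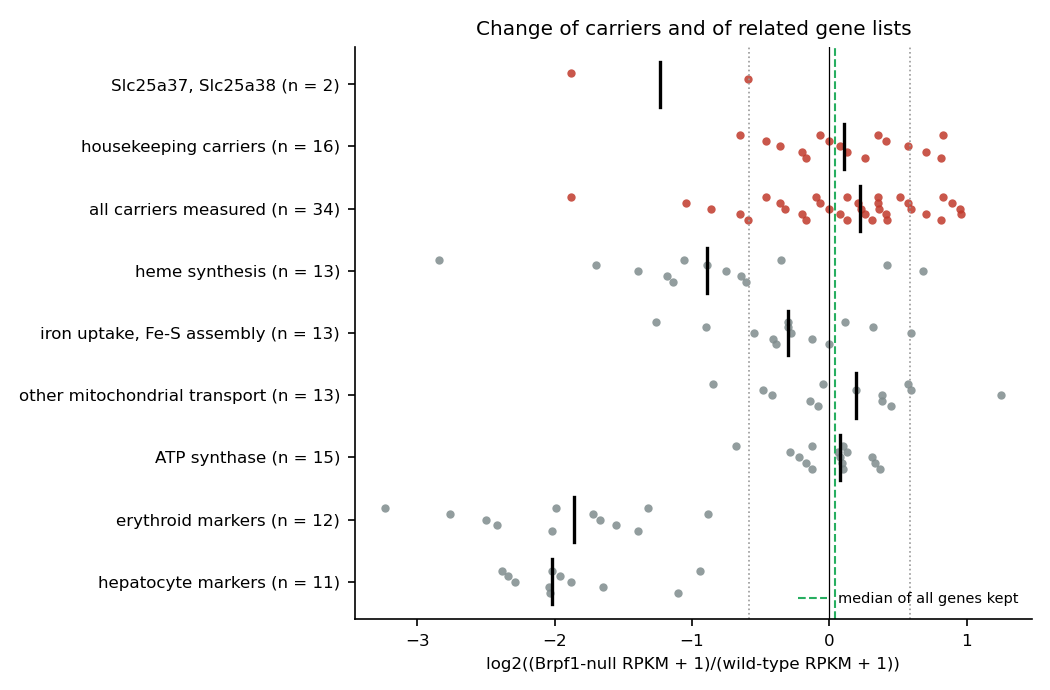
Log2 change of each gene with a mean of at least 1 RPKM, Brpf1-null over wild-type with a pseudocount of 1, for carrier groups (red) and related lists (grey); 1 point is 1 gene, black bars are list medians, the dashed line is the median of all genes and dotted lines mark 1.5-fold. Heme synthesis (median −0.89), erythroid markers (−1.86) and hepatocyte markers (−2.02) lie left of the housekeeping carriers (0.10) and of ATP synthase (0.08).

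Adenine nucleotide and phosphate carriers made up most of the family's transcripts and stayed within 1.5-fold in all 6 measured members, beside 76.5% of all genes. Slc25a5, the ADP/ATP carrier ANT2 of dividing cells, was at 947 RPKM in Brpf1-null and 1066 RPKM in wild-type cells, 53.3% and 59.5% of the summed RPKM of all members in those libraries. Its log2 change was −0.17, and 0.13 after quantile normalization, so its direction depended on the scaling. It has processed copies in the genome, one of which the RefSeq table lists as Slc25a5-ps, and reads may be split between them. Slc25a4, ANT1, the form known best from muscle and heart, was at 295 RPKM in Brpf1-null and 222 RPKM in wild-type cells, 1.33-fold higher (1.29 to 1.36). Slc25a5 therefore stood 3.21 times as high as Slc25a4 in the Brpf1-null library and 4.80 times as high in the wild-type library, and their sum was 1242 and 1288 RPKM in the same order. Slc25a3, the phosphate carrier, was at 110.5 RPKM in Brpf1-null and 105 RPKM in wild-type cells, a change of 0.08 that turned to −0.05 after centring. The calcium-regulated ATP-magnesium/phosphate carriers Slc25a23, Slc25a24 and Slc25a25 lay between 1.43-fold and 1.47-fold higher. Their counting intervals, 1.23 to 1.69, 1.155 to 1.89 and 1.10 to 1.87 in that order, run past 1.5-fold. Slc25a31, the ADP/ATP carrier of male germ cells, was listed at 0 in both libraries.

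Set beside these, 15 measured ATP synthase subunit genes had a median log2 change of 0.08, with 14 within 1.5-fold and Atp5d lower, at 102 RPKM in Brpf1-null and 164 RPKM in wild-type cells. After centring their median was −0.05. Over all genes as deposited, 76.5% lay within 1.5-fold, 14.1% were higher and 9.42% lower. Of 13 measured mitochondrial transporters outside the family, 10 lay within 1.5-fold, 2 were higher and 1 was lower. The lower one was Brp44 (Mpc2), a subunit of the pyruvate carrier, at 25.1 RPKM in Brpf1-null and 46.03 RPKM in wild-type cells, whereas its partner Brp44l (Mpc1) was at 124.5 and 132 RPKM. The higher ones were the sideroflexin genes Sfxn5, at 3.91 RPKM in Brpf1-null and 1.07 RPKM in wild-type cells, and Sfxn3, at 6.87 and 4.22 RPKM in the same order. The change of Sfxn3, 0.59, fell inside 1.5-fold after centring (0.49), on quantile-normalized values (0.49) and without the GC trend (0.46), and centring put Vdac1, a channel of the outer membrane, past the mark on the lower side (−0.61).

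**Figure D3:**
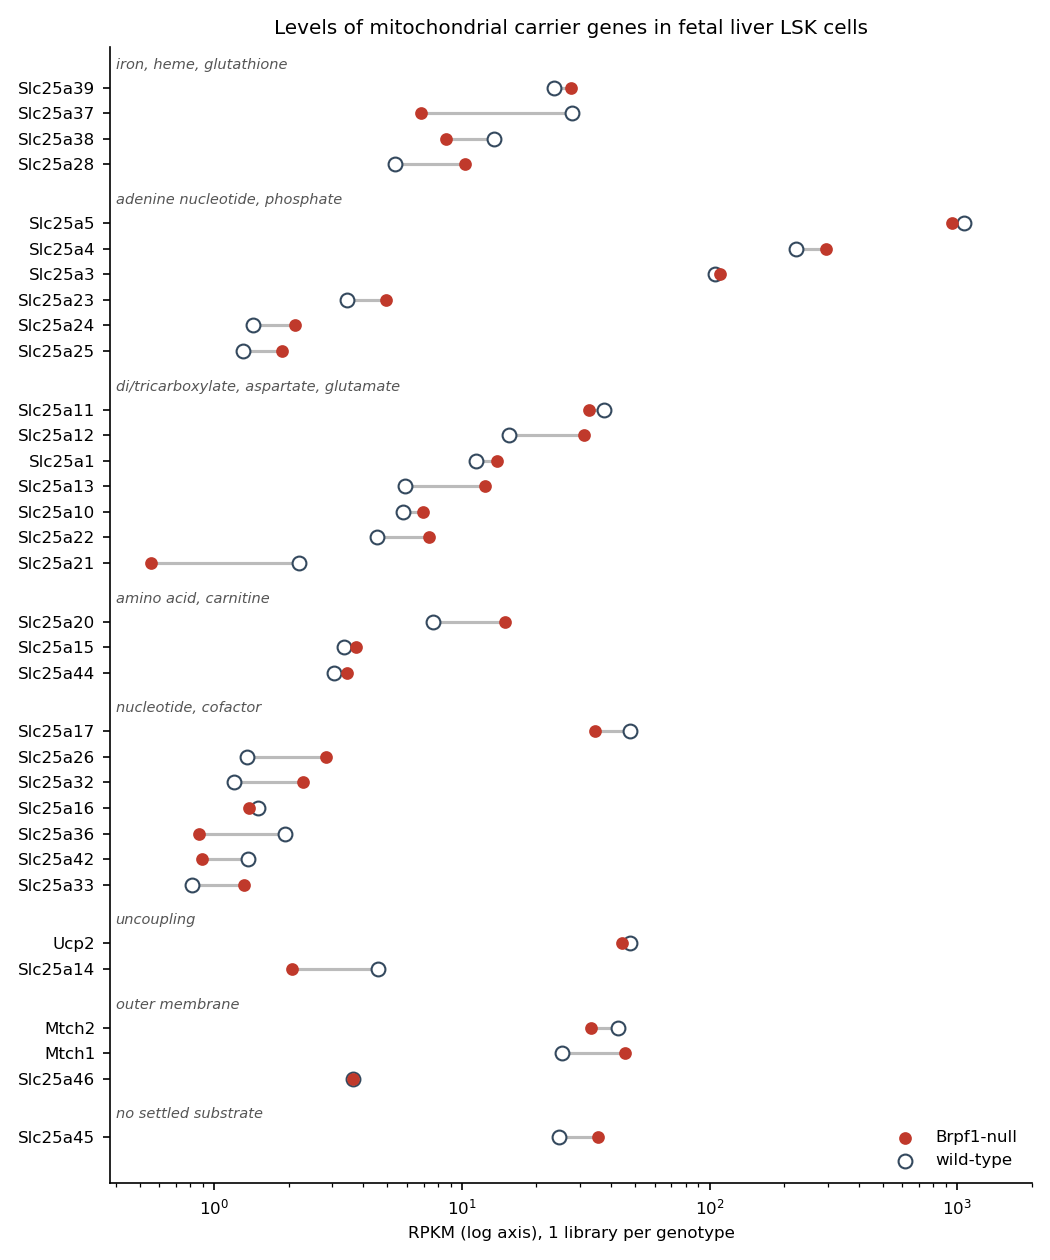
RPKM of measured carrier genes on a log axis, grouped by role and ordered by mean level; filled points are the Brpf1-null library, open points the wild-type library, and grey lines join the values of a gene. Slc25a5, Slc25a4 and Slc25a3 stand above 100 RPKM in both libraries, and Slc25a37 has its filled point at 6.83 RPKM and its open point at 27.9 RPKM.

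The aspartate/glutamate carriers and a glutamate carrier were higher. Slc25a12, the calcium-sensitive aspartate/glutamate carrier aralar, was at 31 RPKM in Brpf1-null and 15.5 RPKM in wild-type cells, 1.99-fold higher (1.90 to 2.10). Slc25a13, its relative citrin, known for its high level in liver, was at 12.4 RPKM in Brpf1-null and 5.89 RPKM in wild-type cells, 2.10-fold higher (1.87 to 2.37). The pair kept its proportion, with Slc25a12 at 2.51 times Slc25a13 in Brpf1-null and 2.64 times in wild-type cells, and its sum was 43.4 RPKM in Brpf1-null and 21.4 RPKM in wild-type cells. Slc25a11, the oxoglutarate/malate carrier that completes the shuttle, was at 32.6 RPKM in Brpf1-null and 37.6 RPKM in wild-type cells, 1.15-fold lower (1.07 to 1.25) and within 1.5-fold. Slc25a22, a glutamate carrier, was at 7.35 RPKM in Brpf1-null and 4.55 RPKM in wild-type cells, a change of 0.59 that was 0.48 after centring, 0.48 on quantile-normalized values and 0.41 without the GC trend, all inside 1.5-fold. Its relative Slc25a18 was at 0.132 RPKM in Brpf1-null and 0.247 RPKM in wild-type cells.

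The remaining carboxylate carriers went both ways. Slc25a21, the oxodicarboxylate carrier of lysine and tryptophan breakdown, was at 0.558 RPKM in Brpf1-null and 2.20 RPKM in wild-type cells, 3.95-fold lower (2.51 to 6.32). Only about 25 and 104 reads stand behind these levels. Its log2 change with the pseudocount was −1.04, and 302 of the 9380 genes had a lower one. The citrate carrier Slc25a1, which supplies carbon for lipid synthesis, was at 13.8 RPKM in Brpf1-null and 11.4 RPKM in wild-type cells. The dicarboxylate carrier Slc25a10 was at 6.94 and 5.78 RPKM in the same order.

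Among amino acid and carnitine carriers, Slc25a20, which brings acylcarnitines in for fatty acid oxidation, was at 15.0 RPKM in Brpf1-null and 7.61 RPKM in wild-type cells, 1.97-fold higher (1.71 to 2.26). The ornithine carrier Slc25a15 and the branched-chain amino acid carrier Slc25a44 lay within 1.5-fold, with intervals that include 1 (0.947 to 1.33 and 0.948 to 1.35), so a difference was not detectable at this depth. Slc25a29, a carrier of basic amino acids, stayed under 1 RPKM in both libraries, and the second ornithine carrier Slc25a2 was listed at 0 in both.

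Nucleotide and cofactor carriers held 1 higher and 1 lower gene among 8 measured, beside 14.1% higher and 9.42% lower over all genes. Slc25a26, which imports the methyl donor S-adenosylmethionine, was at 2.83 RPKM in Brpf1-null and 1.35 RPKM in wild-type cells, 2.09-fold higher (1.54 to 2.92). Slc25a36, a pyrimidine nucleotide carrier, was at 0.867 RPKM in Brpf1-null and 1.93 RPKM in wild-type cells, 2.23-fold lower (1.77 to 2.86), a change of −0.65 that was −0.40, inside 1.5-fold, without the GC trend. Its relative Slc25a33 was at 1.32 RPKM in Brpf1-null and 0.811 RPKM in wild-type cells, 1.63-fold higher (1.05 to 2.55) with a log2 change of 0.36. The order of this pair therefore also differed between the libraries, on values near 1 RPKM. The folate carrier Slc25a32 was at 2.28 RPKM in Brpf1-null and 1.21 RPKM in wild-type cells, 1.89-fold higher (1.56 to 2.29). Its log2 change with the pseudocount of 1 was 0.57, just inside the mark, and it was past the mark at 0.86 with a pseudocount of 0.1 and at 0.61 without the GC trend. Slc25a17, a member of the peroxisomal membrane, was at 34.5 RPKM in Brpf1-null and 47.8 RPKM in wild-type cells, 1.39-fold lower (1.29 to 1.49). The coenzyme A carrier Slc25a16 was at 1.39 RPKM in Brpf1-null and 1.51 RPKM in wild-type cells. Slc25a42, also a coenzyme A carrier, was at 0.893 and 1.37 RPKM in the same order, 1.53-fold lower (1.11 to 2.14), with a log2 change of −0.32 once the pseudocount was added.

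Of the uncoupling proteins, only Ucp2 was listed above 0. Ucp2, the form found in blood and immune cells, was at 44.5 RPKM in Brpf1-null and 47.7 RPKM in wild-type cells, 1.07-fold lower (1.03 to 1.12), the fifth most abundant member in both libraries. Ucp1, which makes heat in brown fat, and Ucp3 of muscle were listed at 0 in both. Slc25a14, a relative of the uncoupling proteins, was at 2.07 RPKM in Brpf1-null and 4.59 RPKM in wild-type cells, 2.22-fold lower (1.69 to 2.90). It is X-linked, like Slc25a5 and Slc25a43, and sex-linked genes differed between the libraries: Y-linked Ddx3y was at 1.65 RPKM in Brpf1-null and 5.87 RPKM in wild-type cells, and Xist at 0.781 and 0.319 RPKM in the same order. The 281 measured X-linked genes had a median log2 change of −0.06, with 29 higher and 32 lower. The sex of the pooled embryos is not given in the sources used here, and its part in the Slc25a14 value was not tested.

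In the outer membrane, the Mtch genes differed in opposite directions. Mtch1 was at 45.3 RPKM in Brpf1-null and 25.4 RPKM in wild-type cells, 1.78-fold higher (1.65 to 1.93). Mtch2, which inserts helical proteins into the outer membrane and is a receptor for the apoptotic protein BID, was at 33.1 RPKM in Brpf1-null and 42.7 RPKM in wild-type cells, 1.29-fold lower (1.21 to 1.38). Mtch1 stood 1.37 times as high as Mtch2 in the Brpf1-null library, and Mtch2 stood 1.68 times as high as Mtch1 in the wild-type library. Without the GC trend the log2 change was 0.65 for Mtch1 (0.81 as deposited) and −0.22 for Mtch2 (−0.36 as deposited), so the changes lay closer together. Slc25a46, which takes part in mitochondrial fusion and fission, was at 3.63 RPKM in both libraries.

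**Figure D4:**
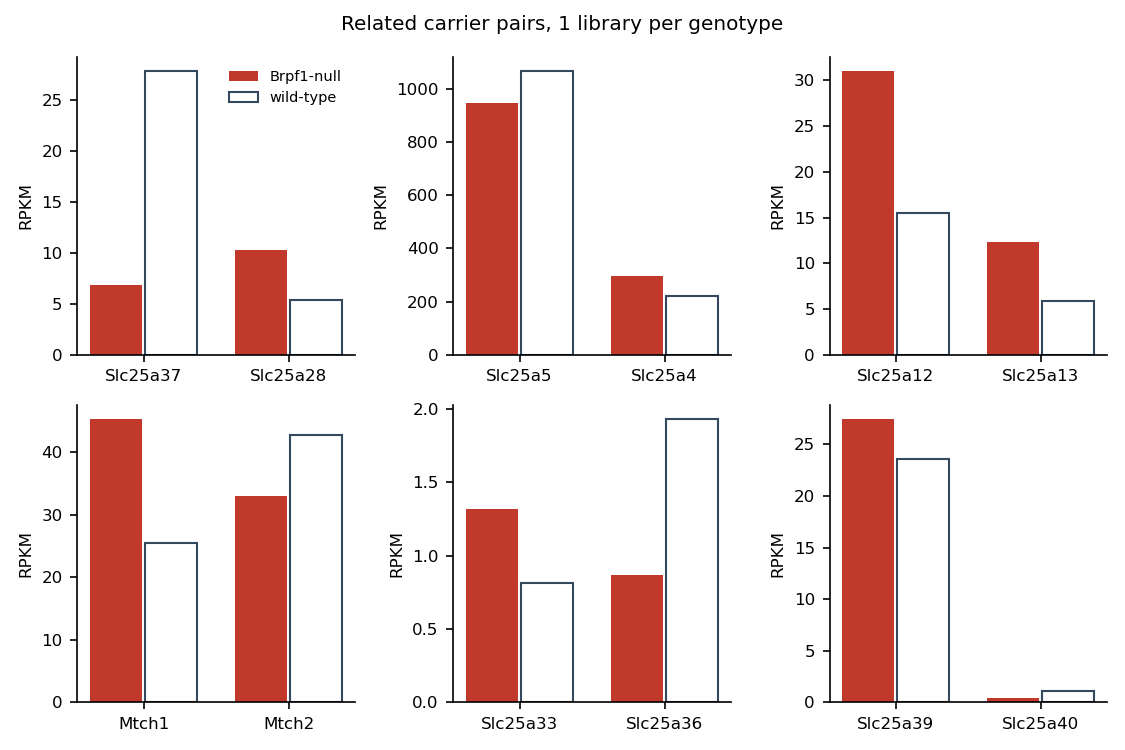
RPKM of 6 pairs of related carriers, with the Brpf1-null library as filled bars and the wild-type library as open bars; each bar is 1 library. The taller gene of the pair differs between the libraries for Slc25a37 and Slc25a28, for Mtch1 and Mtch2 and for Slc25a33 and Slc25a36, while Slc25a12 and Slc25a13 are both higher in Brpf1-null cells.

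The related pairs were chosen for comparison after their values were seen. Of 8 such pairs, 3 changed order between the libraries, those of Slc25a37, of Mtch1 and of Slc25a33. In the other 5 the same gene led in both libraries, by between 2.34 times for Slc25a23 over Slc25a24 and 58.5 times for Slc25a39 over Slc25a40 in Brpf1-null cells. The lead of Slc25a39 over Slc25a40 was 20.7 times in wild-type cells.

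The same 3 members, Slc25a5, Slc25a4 and Slc25a3, led the family in both libraries. The 8 most abundant members by mean, Slc25a5, Slc25a4, Slc25a3, Ucp2, Slc25a17, Mtch2, Mtch1 and Slc25a11, held 86.9% of the family's summed RPKM in Brpf1-null and 88.9% in wild-type cells. All members together came to 1775 RPKM in the Brpf1-null and 1793 RPKM in the wild-type library, 0.521% and 0.495% of the RPKM of all genes in those libraries. Slc25a37 ranked 20 of 47 in Brpf1-null and 8 in wild-type cells, Mtch1 ranked 4 and 9, and Slc25a45, a carrier without a settled substrate, ranked 6 and 10 in the same order. Slc25a45 was at 35.4 RPKM in Brpf1-null and 24.7 RPKM in wild-type cells, 1.44-fold higher (1.34 to 1.55).

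The 13 members under a mean of 1 RPKM were Slc25a2, Slc25a18, Slc25a27, Slc25a29, Slc25a30, Slc25a31, Slc25a34, Slc25a35, Slc25a40, Slc25a41, Slc25a43, Ucp1 and Ucp3. Slc25a43 was listed at 0 in Brpf1-null and at 0.609 RPKM in wild-type cells, from about 16 reads, and Slc25a34 at 0.0503 RPKM in Brpf1-null and 0 in wild-type cells. Slc25a35 was at 0.0246 RPKM in Brpf1-null and 0.463 RPKM in wild-type cells, from about 1 and 20 reads. Slc25a41 was at 0.734 RPKM in Brpf1-null and 0.241 RPKM in wild-type cells, from about 20 and 7 reads. Family members listed under older symbols fall outside the rule: Mcart1 (Slc25a51, the NAD carrier) was at 8.84 RPKM in Brpf1-null and 12.1 RPKM in wild-type cells, and Mcart6 (Slc25a53) at 0.465 and 0.636 RPKM in the same order.

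The change of a gene moved with the GC content of its transcripts in these libraries. Over 9258 genes Spearman's rho was 0.27, and over the 34 measured members 0.31, across genes that share the same libraries. The median GC content was 50.6% for the 7 higher members, 47.3% for the 5 lower ones, 53.5% for the 22 within 1.5-fold and 50.6% for all genes. After this trend was removed, Slc25a37 stood at −1.86 and Slc25a38 at −0.75 on the log2 scale, and 7 members were higher and 4 lower by 1.5-fold. Of all 9258 genes, 12.8% were then higher and 9% lower.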

How the data were processed

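RNA of sorted LSK cells was sequenced from oligo-dT-primed libraries, at 2 companies per the labels' protocols. The submitters' processing notes name TopHat, an aligner, and the mouse build mm9; its version, the annotation and the counting tool: not given in the sources used here. Values for pair 1 were deposited by the authors as RPKM and those for pair 2 as FPKM, per the file headers, which scale reads by transcript length and library size. All 20207 symbols matched between the tables, and 0 Brpf1-null and 0 wild-type values differed. They were read as 1 library per genotype. The sources do not say which pair the values belong to. The deposited tables also hold a ratio and its log2. All 12624 deposited ratios equalled wild-type over Brpf1-null within a relative tolerance of 0.001, the opposite direction to the one used here, and they were not used. The samples were grouped by their genotype labels.

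Changes were log2((Brpf1-null RPKM + 1)/(wild-type RPKM + 1)), over genes averaging 1 RPKM or more (9380 kept, 10827 removed). Symbols were matched to GENCODE M21 transcripts (GRCm38, so it served for names, lengths, GC content and chromosomes only), 17518 directly and 2302 by a RefSeq synonym, and lengths were those of transcripts with a RefSeq match where a gene had one. Library sizes were those at which low values of genes with 1 transcript length came closest to whole reads: 67.2% of 1307 Brpf1-null values and 65.1% of 1276 wild-type values were whole within 0.1 read, against 29.6% and 25.9% with sizes raised by 5%. Reads per gene are therefore approximate. The method was tested on simulated reads. These were made with the same transcript lengths used to recover them, so the effect of wrong lengths was not tested. PCR copies are not independent molecules. With 1 library per genotype no test was made, and the planned test for differing pairs was not used.

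The text names Slc25a37, Slc25a38, the 8 most abundant members, every measured member past 1.5-fold, members of the role lists and, from the lists of partners, genes past 1.5-fold and Alas2, Fech and Tfrc. Other genes were named after their values were seen. A few genes counted in the lists are not reported here by name or drawn by name. Members and lists were chosen with earlier results of these data known. Promoters came from the RefSeq table of GRCm38.p6. Alternatives were other pseudocounts (0.1 and 5), filters, scalings and a fold of 2. Computations used Python 3.11.15, numpy 2.4.6, pandas 2.3.3, scipy 1.17.1, statsmodels 0.14.6 and matplotlib 3.10.9.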

Additional observations from a re-analysis of the deposited data

How the results depend on the processing

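No paired analysis was possible because the tables of both pairs hold the same values, so each genotype was read as 1 library. For the same reason no library could be left out. Slc25a37 kept its direction and its place past 1.5-fold under each of 5 alternatives, at −2.01 with a pseudocount of 0.1, −1.47 with a pseudocount of 5, −2.00 after median centring, −1.96 on quantile-normalized values and −1.86 without the GC trend. Slc25a38 ranged from −0.75 to −0.44 and was inside 1.5-fold with a pseudocount of 5. With that pseudocount 4 members were higher and 1 lower, since it shrinks the change of low genes most. Of all 9380 genes, 5.91% were then higher and 4.19% lower. With a pseudocount of 0.1, 9 members were higher and 5 lower, against 18.6% and 12.4% of all genes. Slc25a32 and Slc25a33 were the members added. Of the 34 members, 20 had a mean of at least 5 RPKM. Of these 20, 6 were higher and 2 lower, against 14.3% and 8.71% of the 5546 genes with that mean. At 2-fold, 0 members were higher and 2 lower, against 4.14% and 3.46% of all genes. Among 17 other named members under 5 alternatives, none past 1.5-fold changed sign, and 6 lost their place past 1.5-fold under at least 1 of them: Slc25a14, Slc25a21, Slc25a26 and Slc25a28 with a pseudocount of 5, Slc25a36 with it and also without the GC trend, and Slc25a22 under each except a pseudocount of 0.1. Slc25a21 rests on about 25 reads in Brpf1-null and 104 in wild-type cells.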
